A study of Mus musculus with 217 samples.

Results

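IPTG (isopropyl-β-D-thiogalactoside), the inducer that lifts *Lac* repressor off its operators, was given to WT mice that have no operator-controlled mutant *Htt* allele, and their striatum was compared at 6 months of age with that of WT mice that never received it. The comparison held 20 of the 217 libraries of the series, chosen by tissue, age and genotype in the sample labels, with 10 mice in each group (5 females and 5 males). The series was built around LacQ140 mice, an HD model in which IPTG keeps m*Htt* expressed and its withdrawal lowers m*Htt*. The spread used in the test was estimated over all 50 libraries of the 6-month striatum, 5 groups of 10 mice. Beside the WT pair these were LacQ140 (IPTG always), LacQ140_A (never) and LacQ140_2M mice (IPTG withdrawn at 2 months of age). The WT pair asks what the inducer does when there is no m*Htt* for it to control.

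Both groups had the genotype that the labels write as Hdh(LacO-+/+):beta-actin-LacIR tg on a C57BL/6 background, so the untreated mice also expressed the *Lac* repressor, a bacterial protein driven ubiquitously by the β-actin promoter. The WT group is titled MOCK in the labels, which give its treatment as None, and is called untreated here; what a mock treatment involved is not stated in them. The WT + IPTG group (WT_IPTG) received IPTG in drinking water or chow without interruption from E5, at first through the pregnant dams, so that prenatal, juvenile and adult exposure cannot be told apart. Mice were housed together by sex, genotype and treatment, so cage and treatment cannot be told apart either. Each library came from the RNA of the right striatum of 1 mouse, and all 20 carried the same batch label. Library totals were 45018717 to 62867692 counts in WT (median, 50373580) and 43360764 to 63600039 in WT_IPTG (median, 51754557).

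The striatum consists mainly of spiny projection neurons, with interneurons, glia and vessels among them. Circulating glucocorticoids act through a nuclear receptor on genes such as *Tsc22d3*, *Sgk1* and *Fkbp5*, and they rise with stress and with the time of day. Fasting draws on *Pdk4* and *Angptl4* to turn cells from glucose toward lipid, low sterol turns on the genes of cholesterol synthesis through SREBP2, and neuronal firing turns on immediate early genes such as *Fos* within minutes.

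The striatal label held in all 20 libraries. The summed level of 10 spiny projection neuron genes, among them *Ppp1r1b* and *Pde10a*, was lowest at 8400 CPM (counts scaled to a common library size) and highest at 13630 CPM in WT, with 8467 to 12190 CPM in WT_IPTG. The 8 markers of cortical excitatory neurons summed to 17.9 to 94.6 CPM in WT and 18.1 to 102.6 CPM in WT_IPTG. Genes of the sex chromosomes fitted the labelled sex in 20 of 20 libraries. *Htt* itself, at chr5:34761740-34912534 (GRCm38), ran from 90.4 CPM through a median of 113 CPM to 137 CPM in WT and from 92.6 CPM through 112 CPM to 128 CPM in WT_IPTG. The groups overlapped throughout, with a log2 difference of -0.07 ± 0.07 (SE; adjusted p = 0.817).

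Levels of genes of neighboring tissue differed between the libraries. The 10 thalamic neuron genes of a list written after the values had been seen (*Tcf7l2*, *Slc17a6*, *Prkcd*, *Shox2*, *Lhx9*, *Tnnt1*, *Rgs16*, *Ntng1*, *Lef1* and *Gbx2*) summed to between 34.7 CPM and 105.1 CPM in WT (median, 42.4 CPM) and between 39.2 CPM and 308.9 CPM in WT_IPTG (median, 88.1 CPM). Only 1 WT library, female 1, was above 1.5 times the median of the 20 libraries, against 5 WT_IPTG libraries: female 5 and males 1, 2, 3 and 5. Every result below is therefore given with those 6 libraries in, and, where stated, without them, which leaves 9 WT mice and 5 WT_IPTG mice, of which 1 is a male.

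A total of 209 of 35808 genes passed the call used throughout, an adjusted p below 0.05 and a change of at least 20% (edgeR quasi-likelihood test with Benjamini-Hochberg adjustment). This was 0.584% of the genes tested, and 136 genes were higher and 73 lower in WT_IPTG. The changes were small: 135 of the 209 were under 1.5-fold, and the median log2 fold change was 0.528 for the risen and -0.414 for the fallen genes, beside 0.00 for all genes. Only 12 genes changed 2-fold or more at a mean of at least 1 CPM. The groups of 7 called genes did not overlap at all, as was true of 10 genes, or 0.0279%, of all those tested.

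The count differed by sex and by library. In the fit of both sexes, the contrast within males called 458 genes (1.28%) and that within females none (0 by edgeR, 2615 at an unadjusted p below 0.05), while the difference between the sexes was itself called for 33 genes (0.0922%). In females 207 of the 209 genes still moved in the direction of the pooled estimate, to which the females contribute, with medians of 0.336 for the risen and -0.291 for the fallen genes, beside 0.777 and -0.568 in males. Without the 6 libraries high in thalamic markers no gene was called (0 by edgeR, 1824 at an unadjusted p below 0.05, DESeq2 not run on this subset), and the medians of the 136 risen and 73 fallen genes were 0.398 and -0.355. The contrast within males then set 1 treated male against 5 WT males, with the spread taken from the other sets, and called 76 genes, 67 higher and 9 lower. With the thalamic level as a covariate, 33 genes were called, of which 27 were among the 209 (12.9% of the 209 and 81.8% of the 33). Leaving out 1 library moved the count from 209 to between 112 without WT male 3 and 288 without WT_IPTG female 4. It was 129 without WT male 2, 127 without WT male 4, 120 without WT_IPTG male 1, 130 without WT_IPTG male 2 and 132 without WT_IPTG female 5.

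Genes that glucocorticoids turn on had the most called members of the 36 lists, among which the later thalamic list, also with 7 called, is not counted. Of 21 listed genes, 7 were higher in WT_IPTG and none lower (beside 0.38% of all genes called as higher), and 18 of 21 had an estimate above 0, with a median log2 fold change of 0.34. These were *Zbtb16*, a zinc finger repressor, *Angptl4*, a secreted lipoprotein lipase inhibitor, *Arrdc2*, an arrestin-domain protein, *Sgk1*, a kinase of ion transport, *Tsc22d3*, which encodes the glucocorticoid-induced leucine zipper, *Pdk4*, which closes pyruvate dehydrogenase, and *Errfi1*, an inhibitor of EGF receptor signaling.

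*Zbtb16* ran from 4.22 CPM through a median of 6.62 CPM to 15.3 CPM in WT and from 10.9 CPM through 19.4 CPM to 33.6 CPM in WT_IPTG. All 10 treated mice were above the WT median and 8 above every WT mouse, with a log2 fold change of 1.40 ± 0.26 (adjusted p = 0.00216). *Angptl4* ran from 1.31 CPM through 5.00 CPM to 10.7 CPM in WT and from 7.03 CPM through 13.7 CPM to 18.3 CPM in WT_IPTG, a log2 fold change of 1.15 ± 0.20 (adjusted p = 0.000801). Here 6 treated mice were above every WT mouse, and the WT values fell into a low range in males and a higher one in females.

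*Arrdc2* spread from 10.1 CPM to 45.5 CPM in WT (median, 22.6 CPM) and from 28.6 CPM to 62.2 CPM in WT_IPTG (median, 47.8 CPM), a log2 fold change of 0.85 ± 0.20 (adjusted p = 0.0201). *Tsc22d3* spread from 67.7 CPM to 117 CPM in WT (median, 90.2 CPM) and from 105 CPM to 185 CPM in WT_IPTG (median, 126 CPM), a log2 fold change of 0.50 ± 0.12 (adjusted p = 0.0188). For both genes 7 treated mice were above every WT mouse. Of the 20 fits that left out 1 library, *Arrdc2* kept its call in 17 (not without WT males 2, 3 or 4) and *Tsc22d3* in 16 (not without WT males 3 or 4 or WT_IPTG males 1 or 2). *Sgk1* overlapped more, at 103 to 348 CPM in WT (median, 233 CPM) and 241 to 377 CPM in WT_IPTG (median, 334.4 CPM), with a log2 fold change of 0.58 ± 0.14 (adjusted p = 0.0317).

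*Fkbp5*, a co-chaperone of the glucocorticoid receptor and a frequent readout of it, was not called. It ran from 39.9 CPM to 95.3 CPM in WT and from 58.4 CPM to 102 CPM in WT_IPTG, with a log2 fold change of 0.27 ± 0.11 (adjusted p = 0.38), and this gene was chosen after its values were seen. In males alone the groups did not overlap, at 39.9 to 55.5 CPM in WT and 61.0 to 101.5 CPM in WT_IPTG, and the contrast was called (0.69 ± 0.14; adjusted p = 0.00154). Females ran from 50.2 to 95.3 CPM in WT and from 58.4 to 76.1 CPM in WT_IPTG (-0.10 ± 0.14; adjusted p = 0.88), and the difference between the sexes was 0.79 ± 0.19 (adjusted p = 0.0627). Without the 6 libraries high in thalamic markers the list median was 0.43, and the estimates were 1.17 ± 0.32 for *Zbtb16* (adjusted p = 0.218) and 0.97 ± 0.23 for *Angptl4* (adjusted p = 0.113).

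The promoter of *Sgk1* is shown because, of the 18 list genes with a promoter entry, it alone had a full glucocorticoid response element in the window examined (*Zbtb16*, *Angptl4* and *Cebpd* had no entry). The window runs from 250 bases before to 50 bases after the RefSeq start (GRCm38.p6). The motif searched was AGAACA, any 3 bases and then its reverse complement TGTTCT, a palindrome whose matches on the 2 strands coincide. It occurred in 3 of 32851 promoters (0.00913%) and in 1 of those 18 genes (1 of their 28 entries). The match, in capitals, lay from -189 to -175, and the window is chr10:21993640-21993939 on the plus strand.
Sgk1: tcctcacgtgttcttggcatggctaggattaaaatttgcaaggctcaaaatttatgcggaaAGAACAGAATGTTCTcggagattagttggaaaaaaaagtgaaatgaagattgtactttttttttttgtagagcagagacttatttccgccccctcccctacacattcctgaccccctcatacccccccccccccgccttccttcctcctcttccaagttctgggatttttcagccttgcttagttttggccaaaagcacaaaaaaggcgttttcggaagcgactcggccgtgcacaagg
A match describes the letters only, and receptor binding was not measured.

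**Figure D1:**
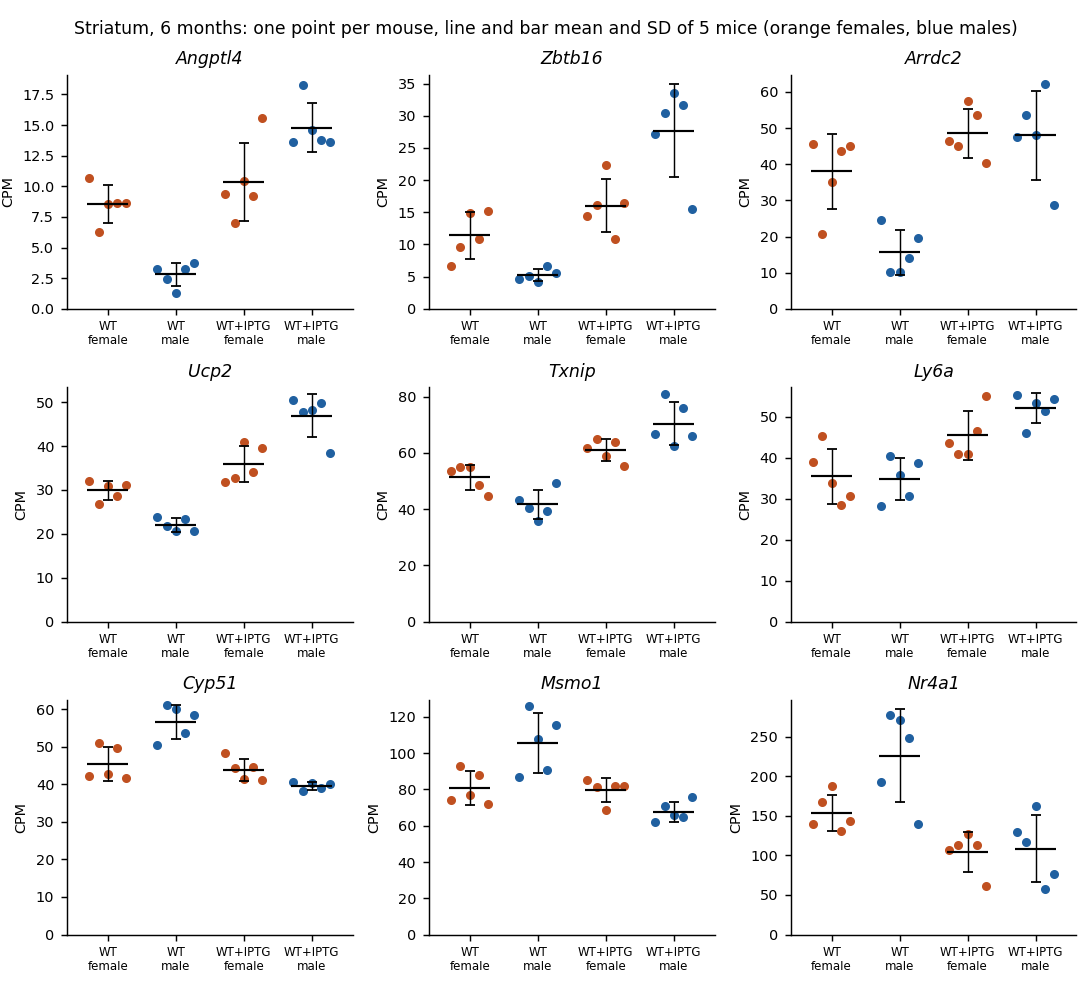
Level in CPM (vertical axis) of 9 genes in each of the 20 mice, by treatment and sex (horizontal axis), with 1 point per mouse and the mean and SD of 5 mice as a line and bar. For *Angptl4* the WT males lie between 1.31 and 3.73 CPM, below all other mice, and for *Cyp51* they lie between 50.4 and 61.0 CPM, against 38.1 to 51.1 CPM in the other mice.

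Of 22 listed genes of fasting and lipid fuel use 5 rose and none fell (beside 0.38% of all genes called as higher), among them *Ucp2*, *Txnip*, *Angptl4* and *Pdk4*, of which *Angptl4* and *Pdk4* also belong to the glucocorticoid list. The list median was 0.16, and 20 of 22 estimates were above 0. In males 6 rose (beside 0.707% of all genes) and in females none did (0 by edgeR, 4 at an unadjusted p below 0.05). As the mean log2(CPM + 1) of 21 of its genes relative to all mice, the list averaged -0.265 in WT males (range, -0.338 to -0.204), 0.162 in WT_IPTG males, -0.000225 in WT females and 0.088 in WT_IPTG females. The genes of fatty acid oxidation on the same list, such as *Cpt1a*, *Cpt2*, *Acadm* and *Hadha*, were not called.

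*Txnip*, which binds thioredoxin and limits glucose uptake, separated the groups completely, from 35.9 CPM through a median of 46.6 CPM to 54.9 CPM in WT and from 55.5 CPM through 64.3 CPM to 81.003 CPM in WT_IPTG, with a log2 fold change of 0.50 ± 0.09 (adjusted p = 0.00216). *Ucp2*, a carrier of the inner mitochondrial membrane, ran from 20.5 CPM through 25.4 CPM to 31.9 CPM in WT and from 31.9 CPM through 40.2 CPM to 50.5 CPM in WT_IPTG, a log2 fold change of 0.67 ± 0.11 (adjusted p = 0.00064). For *Ucp2* 9 of 10 treated mice were above every WT mouse. *Pdk4* ran from 15.9 CPM to 29.4 CPM in WT (median, 20.3 CPM) and from 19.97 CPM to 36.6 CPM in WT_IPTG (median, 31.1 CPM), a log2 fold change of 0.49 ± 0.12 (adjusted p = 0.0278). It kept its call in 14 of the 20 fits that left out 1 library (not without WT males 2, 3 or 4, WT female 2, or WT_IPTG males 1 or 2).

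*Adipor2*, an adiponectin receptor that was among the 12 risen genes with the smallest p, ran from 102 CPM through 132 CPM to 196 CPM in WT and from 185 CPM through 201 CPM to 217 CPM in WT_IPTG (log2 fold change, 0.47 ± 0.08; adjusted p = 0.00156). The treated mice were tightly grouped and the WT mice widely spread, with WT males at 102.4 to 136.6 CPM and WT females at 127.3 to 195.9 CPM. WT females 1, 4 and 5 (195.9, 191.7 and 185.6 CPM) lay within the treated range. Its paralog *Paqr5*, a membrane receptor for progestins, ran from 3.63 CPM to 5.98 CPM in WT and from 4.64 CPM to 8.86 CPM in WT_IPTG, with a log2 fold change of 0.57 ± 0.10 (adjusted p = 0.00156).

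A list of 19 genes of glucose and galactose handling was included because IPTG is a galactoside. *Slc2a1* (GLUT1), the glucose transporter of the blood-brain barrier, was its only called gene (beside 0.38% of all genes called as higher). It ran from 111 CPM through 135 CPM to 178 CPM in WT and from 149.5 CPM through 188 CPM to 247.2 CPM in WT_IPTG, with a log2 fold change of 0.47 ± 0.10 (adjusted p = 0.00726), and 5 treated mice were above every WT mouse. It was also the 1 called gene among 12 genes induced by hypoxia (beside 0.38% of all genes called as higher). Of 18 genes of FOXO and insulin signaling 1 was called (beside the same 0.38%), *Tsc22d3*, which is on the glucocorticoid list as well. As these lists share their called genes with others, the counts are not separate results.

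Of 16 listed genes of cholesterol synthesis 4 fell (beside 0.204% of all genes), among them *Cyp51* and *Msmo1*, none rose, and no estimate was above 0 (median, -0.22). *Cyp51*, which demethylates lanosterol, ran from 41.7 CPM through 50.7 CPM to 61.0 CPM in WT and from 38.1 CPM through 40.8 CPM to 48.3 CPM in WT_IPTG (log2 fold change, -0.29 ± 0.06; adjusted p = 0.0131). Of the treated mice 7 were below every WT mouse.

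*Msmo1*, the sterol C4 methyl oxidase, ran from 71.96 CPM to 126 CPM in WT (median, 89.5 CPM) and from 61.8 CPM to 85.4 CPM in WT_IPTG (median, 73.4 CPM), a log2 fold change of -0.34 ± 0.08 (adjusted p = 0.0157). The call was kept in 17 of the 20 fits that left out 1 library for *Msmo1* (not without WT males 2 or 3 or WT_IPTG male 1) and in 18 for *Cyp51* (not without WT males 2 or 3, where its change was under the 20% minimum). All 10 treated mice were below the WT median for *Cyp51* and *Msmo1*. Without the 6 libraries the list median was -0.19. The letters TCACCCCAC were searched on both strands as a sterol regulatory element. They were in 1 of the 10 list genes with a promoter entry (*Hmgcs1*), or 1 of their 12 entries, and in 0.551% of all promoters.

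Of 16 immediate early genes 2 fell (beside 0.204% of all genes) and none rose, while 14 were not called. Of the estimates 15 of 16 were below 0, and the median was -0.39. *Fos*, a subunit of AP-1, ran from 14.7 CPM through 27.0 CPM to 47.2 CPM in WT and from 11.6 CPM through 14.0 CPM to 18.8 CPM in WT_IPTG, a log2 fold change of -0.87 ± 0.20 (adjusted p = 0.0188). *Nr4a1*, an orphan nuclear receptor induced by activity, ran from 131 CPM through 177 CPM to 277.9 CPM in WT and from 57.1 CPM through 113 CPM to 162 CPM in WT_IPTG, a log2 fold change of -0.84 ± 0.20 (adjusted p = 0.0278). The treated mice were not only lower but, for *Fos*, more alike. *Sik1*, a salt-inducible kinase that cAMP induces and that was among the 12 fallen genes with the smallest p, ran from 13.6 CPM to 25.5 CPM in WT (median, 18.1 CPM) and from 10.2 CPM to 15.2 CPM in WT_IPTG (median, 12.8 CPM), with a log2 fold change of -0.56 ± 0.11 (adjusted p = 0.00483). *Fos* kept its call in 18 of the 20 fits that left out 1 library (not without WT male 2 or 3) and *Nr4a1* in 14 of 20 (not without WT males 2, 3 or 4, WT_IPTG males 4 or 5, or WT_IPTG female 5). Without the 6 libraries the list median was -0.40.

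The promoters of *Nr4a1* and *Fos* are shown because these were the 2 called members. The capitals mark the core letters of the cAMP response element, TGACG on either strand, so that CGTCA is the same match read from the other strand. It was present in 11 of the 12 list genes with an entry (13 of their 16 entries) and in 20.8% of all 32851 promoters. The windows are chr15:101266596-101266895, with 4 matches from -233 to -36, and chr12:85473640-85473939, with 2 matches from -129 to -62, both on the plus strand of GRCm38.p6 from RefSeq.
Nr4a1: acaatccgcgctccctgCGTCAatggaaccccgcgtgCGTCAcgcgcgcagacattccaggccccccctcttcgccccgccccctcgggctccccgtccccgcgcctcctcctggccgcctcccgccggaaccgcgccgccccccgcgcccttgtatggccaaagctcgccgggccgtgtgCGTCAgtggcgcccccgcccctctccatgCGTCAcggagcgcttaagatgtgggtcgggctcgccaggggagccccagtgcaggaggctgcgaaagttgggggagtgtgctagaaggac
Fos: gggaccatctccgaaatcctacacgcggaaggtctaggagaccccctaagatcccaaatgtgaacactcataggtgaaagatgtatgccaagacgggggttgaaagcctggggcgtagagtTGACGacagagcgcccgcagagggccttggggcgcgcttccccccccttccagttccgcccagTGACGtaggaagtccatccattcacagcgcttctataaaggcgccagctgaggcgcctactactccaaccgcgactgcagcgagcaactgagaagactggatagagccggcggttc
Occupancy of these sites was not measured.

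**Figure D2:**
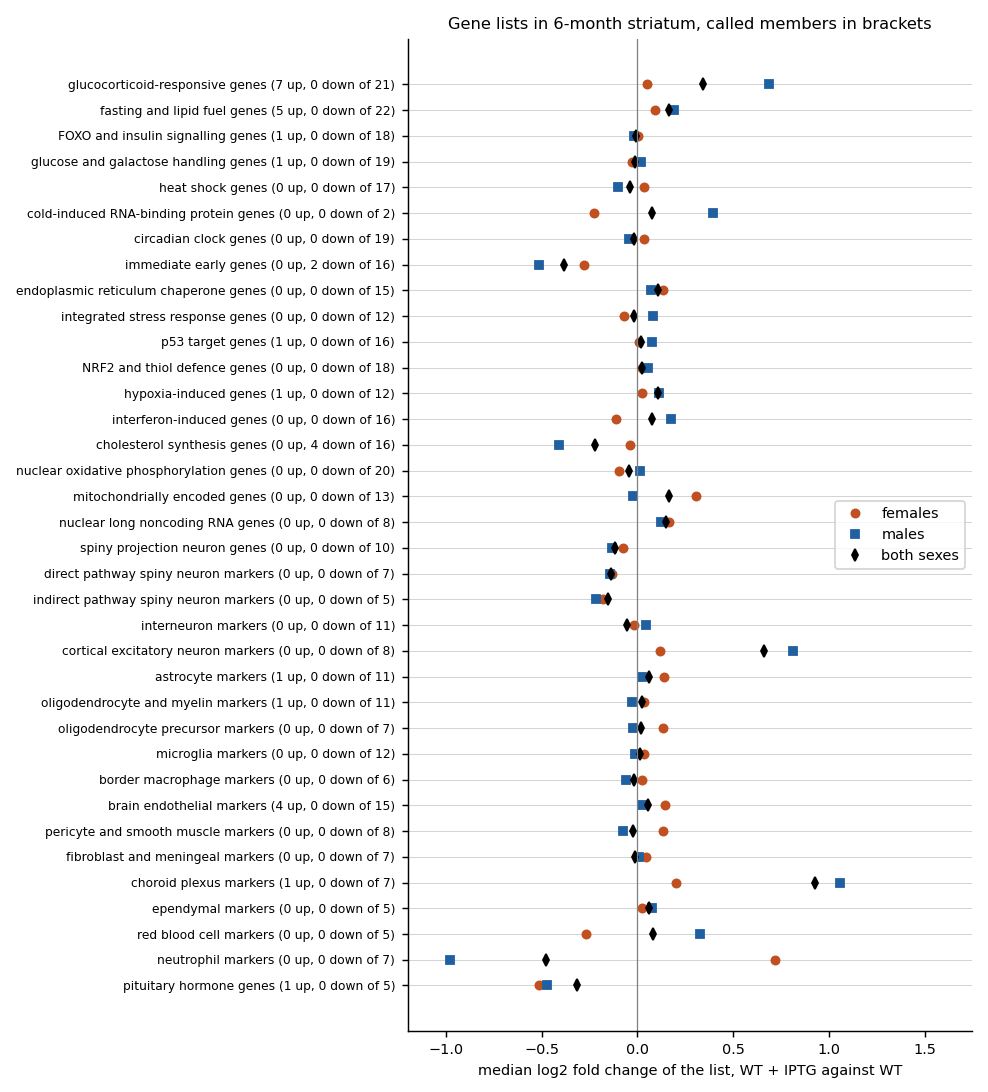
Median log2 fold change of WT_IPTG against WT (horizontal axis) for each of 36 gene lists (vertical axis), in females, males and both sexes together, with the number of called members of the pooled comparison in brackets. The glucocorticoid list lies at 0.69 in males and 0.05 in females, and the cholesterol list at -0.41 and -0.04.

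Outside the lists, the genes with the smallest p among the risen ones included *Rasd1*, a dexamethasone-induced Ras protein. It ran from 2.83 CPM through 4.85 CPM to 8.03 CPM in WT and from 6.90 CPM through 10.6 CPM to 16.8 CPM in WT_IPTG, a log2 fold change of 1.0 ± 0.16 (adjusted p = 0.00064). *Heph*, the copper oxidase hephaestin that carries iron out of cells, ran from 10.1 CPM to 17.4 CPM in WT and from 17.0 CPM to 30.4 CPM in WT_IPTG (log2 fold change, 0.57 ± 0.09; adjusted p = 0.00064). *Slc6a20a*, a proline transporter, ran from 9.02 CPM to 15.0 CPM in WT and from 14.7 CPM to 18.5 CPM in WT_IPTG (log2 fold change, 0.43 ± 0.07; adjusted p = 0.00064). For *Heph* and *Slc6a20a* 9 treated mice were above every WT mouse, although other annotated genes overlap both.

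*Sgms1*, a sphingomyelin synthase of the Golgi, separated the groups, from 43.5 CPM through 50.6 CPM to 53.5 CPM in WT and from 56.8 CPM through 61.2 CPM to 71.5 CPM in WT_IPTG (log2 fold change, 0.33 ± 0.06; adjusted p = 0.00089). Its difference was of like size in males (0.34 ± 0.08) and females (0.31 ± 0.08), and the difference between the sexes was 0.02 ± 0.11. *Stard13*, a GTPase-activating protein, rose by 0.47 ± 0.08 and *A2m*, the protease inhibitor alpha-2-macroglobulin, by 1.03 ± 0.18 on the log2 scale (adjusted p = 0.000794 and 0.00089). For *A2m* the 5 treated libraries high in thalamic markers were the highest of the treated mice, at 3.72 to 8.31 CPM against 2.31 to 3.14 CPM in the other 5, and the WT library high in them was the highest WT mouse, at 3.81 CPM. Its estimate without the 6 libraries was 0.67 ± 0.18 (adjusted p = 0.183). *Gm19439*, a transcript that the annotation holds as still to be experimentally checked, ran from 10.4 CPM to 36.96 CPM in WT and from 33.5 CPM to 59.8 CPM in WT_IPTG (log2 fold change, 0.88 ± 0.15; adjusted p = 0.00064).

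Among the fallen genes the smallest p belonged to *Tdrp*, the testis development-related protein, which ran from 39.04 CPM through 45.5 CPM to 49.3 CPM in WT and from 28.2 CPM through 33.7 CPM to 39.8 CPM in WT_IPTG (log2 fold change, -0.43 ± 0.07; adjusted p = 0.00064). *Dok4*, a docking protein of receptor tyrosine kinases, separated the groups, from 33.7 CPM through 35.8 CPM to 39.1 CPM in WT and from 23.9 CPM through 28.4 CPM to 33.4 CPM in WT_IPTG (log2 fold change, -0.35 ± 0.07; adjusted p = 0.00365). *Otud1*, a deubiquitinase, did so too, from 10.2 CPM through 11.0 CPM to 12.1 CPM in WT and from 8.07 CPM through 8.84 CPM to 9.76 CPM in WT_IPTG (log2 fold change, -0.32 ± 0.07; adjusted p = 0.00635).

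The Notch ligand *Dll1* ran from 7.09 CPM to 10.8 CPM in WT (median, 9.45 CPM) and from 5.92 CPM to 8.48 CPM in WT_IPTG (median, 6.86 CPM), a log2 fold change of -0.43 ± 0.08 (adjusted p = 0.00178). The ligands *Dll4* (-0.64 ± 0.15; adjusted p = 0.024) and *Jag1* (-0.41 ± 0.11; adjusted p = 0.0442) were called in the same direction, and both were chosen after their values were seen. *Map3k14*, the kinase of noncanonical NF-κB signaling, fell by 0.48 ± 0.09 on the log2 scale (adjusted p = 0.00156). *Axin2*, a negative feedback target of Wnt signaling, fell by 0.36 ± 0.07 (adjusted p = 0.00631), with 3 treated mice below every WT mouse. The zinc finger gene *Zfp467* (-0.37 ± 0.07), *Fam222a* (-0.63 ± 0.12) and *Nol4l* (-0.38 ± 0.08) were also among the 12 (adjusted p = 0.00218, 0.00298 and 0.00511).

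Of the markers of cell types within the striatum, 4 endothelial, 1 astrocyte and 1 oligodendrocyte gene were called. In bulk tissue fewer or more cells of a type and a change of RNA per cell cannot be told apart. Of 15 brain endothelial markers 4 rose and none fell (beside 0.38% of all genes called as higher), *Ly6a*, *Pglyrp1*, *Slc2a1* and *Ly6c1*, while the list median was 0.05. *Ly6a*, a GPI-anchored surface protein, had the smallest p among the risen genes with a mean of at least 1 CPM and ran from 28.4 CPM through 34.9 CPM to 45.4 CPM in WT and from 40.9 CPM through 49.04 CPM to 55.5 CPM in WT_IPTG (log2 fold change, 0.47 ± 0.07; adjusted p = 0.00064). *Pglyrp1*, a peptidoglycan recognition protein, ran from 5.94 CPM to 11.8 CPM in WT and from 10.1 CPM to 15.4 CPM in WT_IPTG (log2 fold change, 0.66 ± 0.13; adjusted p = 0.00365). *Ly6c1*, a relative of *Ly6a*, rose by 0.29 ± 0.07 on the log2 scale (adjusted p = 0.0345), a call kept in 10 of the 20 fits that left out 1 library, with estimates from 0.26 to 0.32. The summed level of the 15 markers was 644.5 to 744.8 CPM in WT and 717.8 to 855.5 CPM in WT_IPTG. This sum includes the 4 called genes, of which *Slc2a1* alone ran from 111.2 to 178.5 CPM in WT and from 149.5 to 247.2 CPM in WT_IPTG. A sum without them was not made, and the other 11 markers were not called.

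Among 11 astrocyte markers the connexin gene *Gjb6* alone was called (beside 0.38% of all genes called as higher). It ran from 42.1 CPM through 56.9 CPM to 73.5 CPM in WT and from 67.7 CPM through 72.5 CPM to 97.8 CPM in WT_IPTG (log2 fold change, 0.40 ± 0.09; adjusted p = 0.0133). Among 11 oligodendrocyte markers the myelin gene *Mobp* alone was called (beside the same 0.38%). It ran from 1892 CPM through 2415 CPM to 2896 CPM in WT and from 2351 CPM through 2831 CPM to 3760 CPM in WT_IPTG (log2 fold change, 0.30 ± 0.06; adjusted p = 0.00637). The estimate for *Mobp* was 0.18 ± 0.06 without the 6 libraries high in thalamic markers, and its call was lost without WT_IPTG female 5 alone, where the change was under the 20% minimum (0.25 ± 0.06). No member was called (0 by edgeR, with 1 pericyte and 2 fibroblast genes at an unadjusted p below 0.05) among 7 oligodendrocyte precursor, 12 microglia (median, 0.01), 6 border macrophage, 8 pericyte and smooth muscle, 7 fibroblast and meningeal or 5 ependymal markers.

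Neuronal identity genes were not called (0 by edgeR, 2 of 10 spiny projection neuron genes at an unadjusted p below 0.05). The 10 spiny projection neuron genes had no estimate above 0 and a median of -0.12, and the medians were -0.14 over 7 direct pathway and -0.16 over 5 indirect pathway markers. Without the 6 libraries the median of the 10 genes was 0.02. *Adora2a*, the adenosine receptor of indirect pathway neurons, came closest, from 272 CPM through 399 CPM to 455 CPM in WT and from 253.2 CPM through 329.7 CPM to 381 CPM in WT_IPTG (log2 fold change, -0.28 ± 0.08; adjusted p = 0.0682). It was called in 4 of the 20 fits that left out 1 library (without WT male 5 or female 4, or WT_IPTG male 4 or female 4), and the direct pathway marker *Eya1* was called with transcript length as a covariate (-0.29 ± 0.07; adjusted p = 0.024). The adenylyl cyclase gene *Adcy5* (-0.18 ± 0.08; adjusted p = 0.432), the enkephalin precursor gene *Penk* (-0.12 ± 0.05; adjusted p = 0.452) and the muscarinic receptor gene *Chrm4* (-0.26 ± 0.09; adjusted p = 0.214) did not pass. None of 11 interneuron markers was called.

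Of the markers of tissue next to the striatum, thalamic genes and 1 choroid plexus gene were called, while no cortical excitatory marker was. *Prkcd*, a protein kinase C of thalamic neurons, ran from 10.5 CPM through 12.0 CPM to 47.99 CPM in WT and from 12.3 CPM through 37.7 CPM to 152 CPM in WT_IPTG (log2 fold change, 1.58 ± 0.31; adjusted p = 0.00309). Of the 10 thalamic genes 7 were called, all higher (beside 0.38% of all genes called as higher), with a list median of 0.99, counts that support nothing because the list was written after the values were seen. The median was 0.10 without the 6 libraries, which follows from their choice by these same genes. *Ttr*, the transthyretin of choroid plexus, ran from 3.70 CPM through 10.0 CPM to 31.2 CPM in WT and from 3.45 CPM through 20.1 CPM to 688 CPM in WT_IPTG (male 5), where every other mouse was at 35.4 CPM or below. Its log2 fold change was 2.64 ± 0.59 (adjusted p = 0.0136) with all libraries, 0.51 ± 0.42 (adjusted p = 0.774) without WT_IPTG male 5 and 0.04 ± 0.50 without the 6. The 8 cortical excitatory markers had a median of 0.66 (0 called) and of 0.08 without the 6, and the 7 choroid plexus markers had medians of 0.93 and 0.06. Their part in the other calls was not tested beyond the fits without the 6 libraries and with the thalamic covariate.

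**Figure D3:**
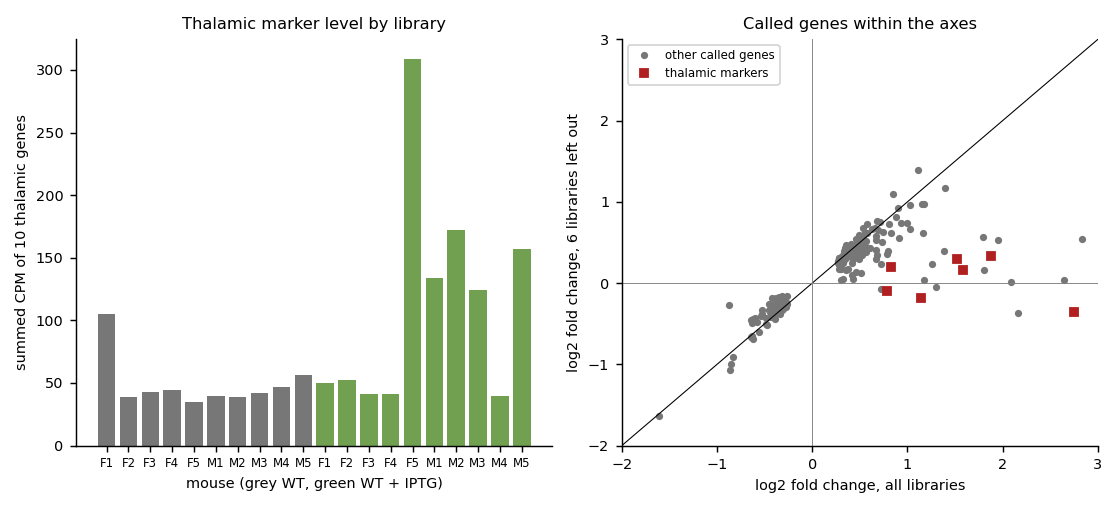
Left, summed CPM of 10 thalamic genes (vertical axis) in each of the 20 mice, where WT female 1 and WT_IPTG female 5 and males 1, 2, 3 and 5 stand above the rest. Right, log2 fold change of 197 called genes without those 6 libraries (vertical axis) against that with all libraries (horizontal axis), with the line of equality; the thalamic genes lie near 0 on the vertical axis because the libraries were chosen by them, and 12 called genes lie outside the axes.

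Several stress lists had no called member in the comparison of both sexes (0 by edgeR). This held for 17 heat shock genes (3 at an unadjusted p below 0.05; median, -0.04; *Dnajb1*, -0.29 ± 0.08, adjusted p = 0.0553; *Hspa1a*, -1.07 ± 0.29, adjusted p = 0.0617), of which *Hspa1a* was at 32.7 CPM in WT male 3 and at 6.499 CPM or below in every other mouse. Without WT male 3 its estimate was -0.30 ± 0.20 (adjusted p = 0.739). Both lay near the threshold: *Dnajb1* was called in 5 and *Hspa1a* in 7 of the 20 fits that left out 1 library, and both, with *Hspa1b*, were called as lower in males, a contrast not run without WT male 3. In 10 other settings of the fit *Dnajb1* stayed uncalled in 6 and *Hspa1a* in 9. The call was likewise absent for 15 endoplasmic reticulum chaperones, whose 15 estimates were all above 0 with a median of 0.11, and for 12 genes of the integrated stress response, 18 of NRF2 and thiol defense and 16 induced by interferon (6, 3, 2 and 2 at an unadjusted p below 0.05). In males *Herpud1* and *Ddit4* were called as higher and *Atf3* and *Slc7a11* as lower, of which *Slc7a11*, like *Hspa1b*, was chosen after its values were seen. It also held for 19 circadian clock genes (median, -0.02), where *Per1*, a clock gene that glucocorticoids also induce, was at -0.34 ± 0.12 (adjusted p = 0.256), and for both cold-induced RNA-binding genes, *Rbm3* and *Cirbp*. No member was called among 20 nuclear genes of oxidative phosphorylation (median, -0.04) or 13 mitochondrially encoded genes (median, 0.16). Of 16 p53 targets only *Pmaip1*, the proapoptotic factor NOXA, was called (beside 0.38% of all genes called as higher). It separated the groups at a low level, from 1.15 CPM to 1.62 CPM in WT and from 1.72 CPM to 3.498 CPM in WT_IPTG (log2 fold change, 0.81 ± 0.17; adjusted p = 0.00635).

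Markers of blood were not called (0 of 5 red cell and 0 of 7 neutrophil genes). Of 5 pituitary hormone genes *Tshb* alone was called (beside 0.38% of all genes called as higher). It was at a low level, 0.22 to 0.97 CPM in WT and 0.77 to 1.55 CPM in WT_IPTG (log2 fold change, 0.73 ± 0.17; adjusted p = 0.0188). The call was lost without WT male 2, WT_IPTG male 3 or WT_IPTG female 5. The share of mitochondrially encoded counts was 5.85% to 7.68% in WT and 6.10% to 9.83% in WT_IPTG (two-sided permutation test, p = 0.0868; adjusted over 4 library properties, p = 0.347). Library size, nuclear long noncoding RNA and the slope on transcript length had an adjusted p of at least 0.443.

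By sex, the lists gave different counts. In males alone 15 of 21 glucocorticoid genes rose (beside 0.707% of all genes) and 11 of 16 cholesterol genes fell (beside 0.572%). In females no member of either list was called (0 by edgeR, with 1 and 2 at an unadjusted p below 0.05), and the list medians were 0.05 and -0.04. The difference between the sexes was called for 5 of the glucocorticoid list (*Angptl4*, *Sult1a1*, *Plin4*, *Cdkn1a* and *Hif3a*) and 3 of the cholesterol list (*Hmgcs1*, *Sqle* and *Msmo1*), beside 0.0447% of all genes called as higher and 0.0475% as lower in males by this test. Leaving out the 6 libraries leaves 1 treated male, which the fit assumes to vary like the mice of the other sets. The adjusted p was then 0.0019 for *Angptl4*, 0.00086 for *Sult1a1*, 0.02 for *Plin4*, 0.15 for *Cdkn1a*, 0.57 for *Hif3a*, 0.2 for *Hmgcs1*, 0.62 for *Sqle* and 0.45 for *Msmo1*. The genes in this paragraph and the next that were not named above were chosen after their values were seen.

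*Angptl4* averaged 2.80 CPM in WT males, 8.55 CPM in WT females, 10.3 CPM in WT_IPTG females and 14.8 CPM in WT_IPTG males. The WT males were thus below every other mouse, the effect was 2.41 ± 0.20 in males and 0.28 ± 0.18 in females, and the difference between them was 2.13 ± 0.27 (log2; adjusted p = 4.21e-06). *Cdkn1a*, the cell cycle inhibitor p21, ran from 15.1 to 19.7 CPM in WT males, 22.9 to 70.7 CPM in WT females, 48.7 to 71.6 CPM in WT_IPTG females and 49.4 to 100.8 CPM in WT_IPTG males (difference between the sexes, 2.06 ± 0.42; adjusted p = 0.018). *Plin4*, a lipid droplet coat protein, ran from 4.59 to 18.8 CPM in WT males and from 23.7 to 67.3 CPM in WT females, with 33.1 CPM or more in all 10 treated mice (difference, 2.64 ± 0.47; adjusted p = 0.00265). For *Sult1a1*, a phenol sulfotransferase, the WT males ran from 8.90 to 15.2 CPM and all other mice were at 22.7 CPM or more (difference, 1.48 ± 0.21; adjusted p = 8.81e-05). In all 4 genes the untreated males lay below every mouse of the other 3 sets. For *Hif3a*, the other gene of the glucocorticoid list called for this difference, they did not. WT males reached 6.249 CPM, while the lowest mouse was at 5.304 CPM in WT females and at 5.781 CPM in WT_IPTG females. These genes were picked by a test on the same mice, and the share of all genes with such a separation was not counted.

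The sexes also differed without treatment. Between WT males and WT females 8 of 21 glucocorticoid genes were lower in males (beside 0.257% of all genes) and 5 of 16 cholesterol genes higher (beside 0.184%), among 158 called genes (0.441%). Between treated males and females no member of either list was called, among 23 called genes (0.0642%). These contrasts share libraries with the contrasts by sex above and are not independent of them.

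Set beside all 10 sets of 5 mice in the striatum table (5 groups, 2 sexes), WT males had the lowest mean for 16 of 21 glucocorticoid genes, beside 12.4% of the 14729 genes with a mean of at least 1 CPM. They had the highest mean for 14 of 16 cholesterol genes, beside 13.8%, and for 10 of 16 immediate early genes. WT_IPTG males had the highest mean for 9 of 21 glucocorticoid genes, beside 12.6%. The glucocorticoid list, as the mean log2(CPM + 1) relative to all mice, averaged -0.588 in WT males (range, -0.792 to -0.335) and -0.308 in untreated mutant males (LacQ140_A). It averaged 0.106 in WT females, 0.151 in WT_IPTG females and 0.309 in WT_IPTG males. The cholesterol list averaged 0.267 in WT males (range, 0.199 to 0.359), 0.0295 in WT females, -0.0224 in WT_IPTG females and -0.112 in WT_IPTG males. The untreated WT males were thus at the far end of both lists among untreated as well as treated sets. Since mice were housed by sex, genotype and treatment, such a set and its cages cannot be told apart.

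**Figure D4:**
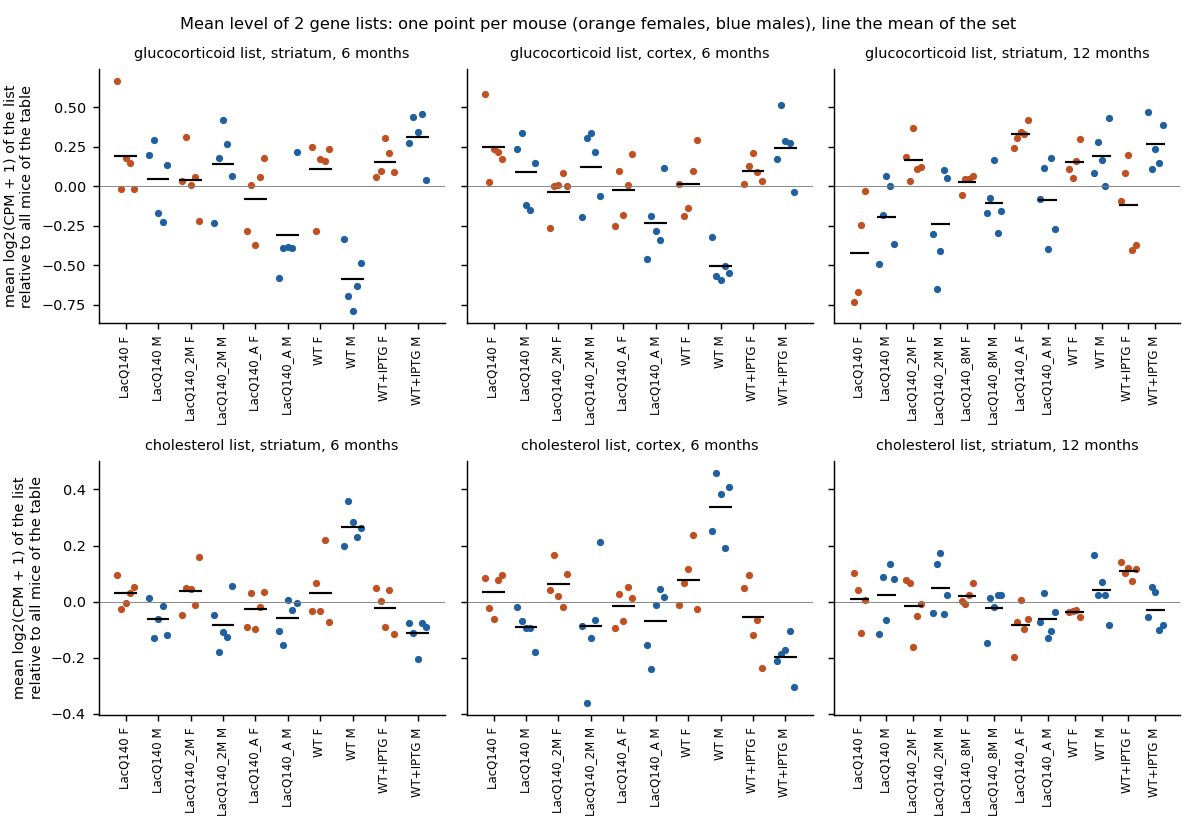
Mean log2(CPM + 1) of the glucocorticoid list (top) and the cholesterol list (bottom) relative to all mice of a table (vertical axis), for each group and sex (horizontal axis) in striatum and cortex at 6 months and striatum at 12 months, with 1 point per mouse and a line at the mean. At 6 months the WT males lie lowest for the first list, at a mean of -0.588, and highest for the second, at 0.267, in striatum, and likewise in cortex, but not at 12 months.

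The cortex of the same 20 mice gave 219 called genes (0.609%), 90 higher (0.25%) and 129 lower (0.358%), with 0.864% of genes called in males alone and none in females alone (0 by edgeR, 1857 at an unadjusted p below 0.05). As the mice are shared, the values are set side by side only. In cortex 4 of 21 glucocorticoid genes rose and 1 fell (*Dusp1*), with a median of 0.41, and 8 of 16 cholesterol genes fell, with a median of -0.33. Of 16 immediate early genes 6 fell, among them *Fos* (-0.89 ± 0.16; adjusted p = 0.00258) and *Nr4a1* (-0.65 ± 0.14; adjusted p = 0.0161). *Angptl4* was at 1.08 ± 0.19, *Ucp2* at 0.81 ± 0.13 and *Ly6a* at 0.49 ± 0.09 (adjusted p = 0.00179, 0.00053 and 0.00258). *Pdk4* (0.05 ± 0.11), *Dll1* (-0.05 ± 0.09) and *Pmaip1* (0.08 ± 0.13) were not called in cortex. A test of the tissue by treatment difference within mice called no gene (0 by edgeR, 3199 at an unadjusted p below 0.05), so none of these was shown to differ between the tissues. WT males again had the lowest of the 10 sets for 14 of 21 glucocorticoid genes (beside 11.7% of genes) and the highest for 16 of 16 cholesterol genes (beside 15.7%).

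At 12 months, in 10 WT_IPTG and 9 WT mice other than those above, 77 genes were called (0.218%), and none of them was among the 209. Of the 209 genes, 90 had the same sign at both ages, and their medians at 12 months were -0.01 for the genes that rose at 6 months and 0.06 for those that fell. No member of the glucocorticoid list (median, -0.09) or the cholesterol list (median, 0.04) was called. *Angptl4* was at -0.30 ± 0.23 (adjusted p = 0.694) and *Zbtb16* at -0.07 ± 0.25 (adjusted p = 1.0). All 16 immediate early genes were above 0, with a median of 0.44 and 1 called (*Egr4*, beside 0.136% of all genes called as higher), and the estimates for *Fos* and *Nr4a1* were 0.73 ± 0.27 and 0.92 ± 0.30 (adjusted p = 0.215 and 0.153). The ages were in separate tables, and the difference between them was not tested.

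By sex at 12 months, 2910 genes were called in females (8.22%) and 1 in males (0.00283%), with 1549 genes called for the difference (4.38%). In females 12 of 16 immediate early genes and 13 of 17 heat shock genes rose (beside 4.78% of all genes), and 7 of 21 glucocorticoid genes fell (beside 3.45%) while 2 rose (*Per1* and *Dusp1*). The immediate early list averaged 0.924 in WT_IPTG females (range, 0.804 to 1.13), the highest of the 12 sets of that table, while the other sets of WT mice averaged -0.173 to 0.163. At 6 months, by contrast, the untreated males had the highest mean for 10 of these 16 genes.

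LacQ140 mice that always received IPTG and LacQ140_A mice that never did share no library with the WT pair, but they also differ in m*Htt*. Of 674 genes called between them (1.88%), 9 were among the 209, which is 4.31% of the WT list and 1.34% of theirs. Of these, 6 went the same way (*Ildr2*, *Rarb*, *Jag1*, *Gm26894*, *Fgf3* and *Tma16*) and 3 the other way (*Has1*, *Adgrl4* and *Gm15721*). Of the 209 genes 144 had the same sign, with medians of 0.12 for those that rose in WT and -0.08 for those that fell. In the glucocorticoid list no gene was called, but 20 of 21 were above 0 with a median of 0.29, and the medians were 0.28 in males and 0.33 in females. *Zbtb16* was at 0.72 ± 0.26 and *Cdkn1a* at 0.85 ± 0.26 (adjusted p = 0.167 and 0.0711). The cholesterol list had a median of 0.02 with no call. The spiny projection neuron genes, of which 8 of 10 fell in the mutant pair (median, -0.39, beside 1.3% of all genes called as lower), had no call in WT, so that for *Penk* the mutant estimate was -0.55 ± 0.05 (adjusted p = 2.05e-11) beside -0.12 ± 0.05 in WT.

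**Figure D5:**
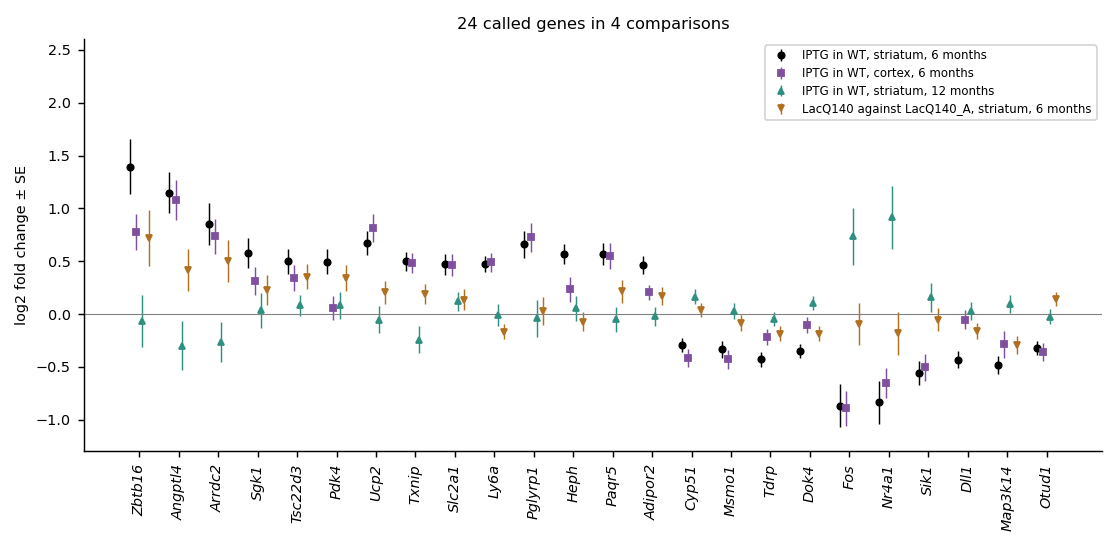
Log2 fold change with its SE (vertical axis) of 24 genes called in the 6-month WT striatum (horizontal axis) in that comparison, in the cortex of the same mice, in WT striatum at 12 months and between LacQ140 and LacQ140_A mice. *Angptl4* lies at 1.15, 1.08, -0.30 and 0.42 in that order, and *Fos* at -0.87, -0.89, 0.73 and -0.10.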

How the data were processed

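RNA-Seq of the right striatum was analyzed from the table of counts that the authors deposited for all 6-month libraries, one column per mouse and not normalized. The deposited values are expected counts, since 33.85% of nonzero values were not whole, and they were rounded to whole numbers before testing. Reads were paired-end, per the study's methods, and the build was GRCm38, per the submitters' processing notes, while the aligner, quantification program and annotation release are not given in the sources used here. Genes were named by the annotation in the reference given (54495 of 54532 IDs matched).

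Groups and sexes were taken from the sample labels. The 5 groups of 10 mice of the 6-month striatum were fitted together with edgeR 4.0.16 (R 4.3.3; TMM, glmQLFit, glmQLFTest), keeping the 35808 genes with at least 1 count. A gene was called at a Benjamini-Hochberg adjusted p below 0.05 and a change of at least 20%, as in the study's own analysis. The sex by IPTG difference was fitted on group-by-sex means and the tissue by IPTG difference with mouse as a block. The cortex and 12-month tables were fitted alike, each on its own. Levels are CPM on TMM-scaled library sizes, and depth was 43360764 to 63600039 counts. Counting error weighs most on genes at a low level, such as those under 1 CPM. Its part in the spread between mice was not tested. Pairs of libraries of a group differed by more than sampling noise (90 pairs; smallest chi-square per degree of freedom, 13.4). The steps were tested on simulated data. DESeq2 1.42.0 was an alternative, as were DESeq2 size factors, filterByExpr, sex, the replicate number as a block, a transcript length covariate, single sexes and each library left out.

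Named were *Htt*, the 12 risen and 12 fallen called genes with the smallest p at a mean of at least 1 CPM, and up to 4 called or 2 uncalled members of each of 36 lists (410 genes, 409 tested; *Gpr52* was not tested). Other genes are named as chosen after their values were seen. The members and lists were chosen with earlier results of these data known, and the thalamic list and the fits that use it were added after seeing the data. Promoters are from RefSeq. Library properties were compared by two-sided permutation tests (100000 resamples; scipy 1.17.1). Some genes that the naming rule picked are not reported here.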

Additional observations from a re-analysis of the deposited data

Results flagged for a closer look

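A single mouse stood apart from the other 9 of its group in 17 of 176 groups of values examined, by the gap to its nearest neighbor relative to the range of the group (Dixon's test at the 95% level, which by chance alone marks about 5% of groups). In WT_IPTG female 5, the library highest in thalamic genes, this held for *Heph* (30.4 CPM), *Sgms1* (71.5 CPM), *Rora* (83.8 CPM) and *Gjb6* (97.8 CPM). In WT_IPTG male 5 it held for *Ttr* (688 CPM), in WT_IPTG male 2 for *Herpud1* (71.6 CPM) and *Ltf* (0.0463 CPM), and in WT_IPTG male 4 for *Lcn2* (4.48 CPM).

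In WT male 3 it held for the heat shock genes *Dnajb1* (109 CPM) and *Hspa1a* (32.7 CPM) and for *Lcn2* (3.01 CPM). In WT male 5 it held for *mt-Co3* (2198 CPM), *Cck* (30.7 CPM) and *Hbb-bt* (37.03 CPM), in WT male 4 for *Ltf* (0.441 CPM), in WT female 1, the WT library high in thalamic genes, for *A2m* (3.81 CPM), and in WT female 5 for *Stard13* (17.2 CPM). What set these mice apart was not tested.

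The effect of IPTG differed between males and females for 33 genes by the test of the difference itself. Of the genes named by rule, these included *Angptl4*, whose log2 effect was higher in males by 2.13, and *Msmo1*, whose difference, males minus females, was -0.62.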

How the results depend on the processing

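Of the 41 called genes named by rule, none changed sign under any alternative, and 29 kept their call whichever 1 library was left out. All 41 were called by DESeq2, with DESeq2 size factors, with filterByExpr and with sex as a covariate, 40 with the transcript length covariate, 37 in males only, 34 with the 2 WT groups alone, 16 with the thalamic covariate, and 0 in females only or without the 6 libraries high in thalamic markers. The number of called genes, 209, was 216 by DESeq2, 126 with the 2 WT groups alone in the fit, 539 in a fit of the males alone (458 by the contrast within males in the fit of both sexes) and 0 in one of the females alone (edgeR). It was 112 to 288 with 1 library left out, 0 without the 6 libraries high in thalamic markers and 33 with the thalamic covariate. The 25 called list members were 16 with the 2 WT groups alone, 53 in males only, 0 in females only, 15 (without WT male 2) to 32 (without WT female 1) with 1 library left out, 0 without the 6 libraries and 6 with the covariate. The 12-month count of 77 was 127 by DESeq2, 150 with filterByExpr and 14 with a replicate block. The 33 genes that differed between the sexes were 8 without the 6 libraries. The causes were not tested.

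Replicate numbers did not pair the mice. Mice with the same number and sex had deviations correlated at -0.382 to 0.32 (mean, -0.0387), against 0.00997 for other numbers, and 2 samples correlated best with their own number. With a replicate block 176 genes were called, and 37 of the 41 named genes. A fit without the 6 libraries holds 1 treated male, and what library depth limits was not tested.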
